A study of Homo sapiens with 36 samples.

Results

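The genes described here are 9 immediate early genes, EGR1, EGR2, EGR3, NR4A1, NR4A2, NR4A3, IER2, IER3 and CSRNP1, taken by name from the 18048 genes with values in each of 3 expression tables. All 9 were present in each table. The list was chosen by gene name with measured values in view, the fold changes of EGR1 and NR4A2 over vehicle after 6 weeks in particular, so values of a dose against vehicle are given as a description. They were measured by mRNA sequencing in EA.hy926 cells, an established human line made by fusing umbilical vein endothelial cells with the lung epithelial line A549, treated with perfluorooctanoic acid (PFOA), a fluorinated surfactant that persists in the body. The groups were PFOA at 1, 10 or 100 µM for 48 h and PFOA at 1, 10 or 100 nM for 6 or 12 weeks, and each exposure time had its own vehicle group. Every group had 3 biological replicates, 36 libraries in all, and all cells, vehicle groups included, received 0.05% DMSO. The cells are labelled wild type, and all libraries come from 1 hybrid line. Cells of the 48 h groups were lysed after a rinse in their dishes, whereas those of the 6 and 12 week groups were collected during passaging, so harvest and exposure time cannot be told apart when levels are set side by side across times.

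Immediate early genes are transcribed within minutes of a growth factor, stress or mechanical signal, without new protein synthesis, and their short-lived transcripts then decline. In endothelial cells EGR1, a zinc finger transcription factor, is known for its induction by fluid shear, growth factors and injury. Serum response factor and its ETS partners, which are targets of the ERK kinases, bind CArG boxes upstream of EGR1, while CREB acts on genes of the NR4A family, which encode orphan nuclear receptors. EGR proteins also switch on NAB2, a corepressor that limits their own activity.

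The values are read counts that the submitters divided by 1 factor per library, called normalised read counts here. Recovered reads per library ran from 17815292 to 19466331, and 14192 to 15050 genes had a read. Defining markers were in accord with the label only in part. Of 12 endothelial markers 10, PECAM1, CDH5 and NOS3 among them, averaged at least 10 in each table. KDR averaged 1.39 to 2.34 by table, and CLDN5 stayed under 1 read per library. Of 6 epithelial markers 4 also averaged at least 10. KRT19 averaged 4.53 to 9.81 by table, and CDH1 stayed under 1 read per library. Fibroblast markers summed to at most 40.6 and leukocyte markers to at most 16.9 in any library. The share of reads from 84 ribosomal protein genes ran from 9.37% to 22.2% over the 36 libraries. A read stood for 0.737 to 1.85 normalised counts, the inverse of the authors' size factor, although the libraries differed little in depth.

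The 2 stretches of upstream sequence shown are those of EGR1, whose group means differed most at 6 weeks, and of IER2, the member with the highest mean per kilobase over all 36 libraries. Both are the 250 bases before the RefSeq start on the plus strand of GRCh38.p14, at chr5:138465229-138465478 for EGR1 and chr19:13150161-13150410 for IER2. In EGR1 the capitals mark CArG boxes, and in IER2 they mark TGACG, the short form of the cAMP response element, read on either strand.
EGR1: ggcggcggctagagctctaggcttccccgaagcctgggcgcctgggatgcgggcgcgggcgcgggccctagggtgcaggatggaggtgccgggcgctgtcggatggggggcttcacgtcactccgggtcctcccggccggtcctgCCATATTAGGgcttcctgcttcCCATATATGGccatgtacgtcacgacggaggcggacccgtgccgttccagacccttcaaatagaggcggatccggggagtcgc
IER2: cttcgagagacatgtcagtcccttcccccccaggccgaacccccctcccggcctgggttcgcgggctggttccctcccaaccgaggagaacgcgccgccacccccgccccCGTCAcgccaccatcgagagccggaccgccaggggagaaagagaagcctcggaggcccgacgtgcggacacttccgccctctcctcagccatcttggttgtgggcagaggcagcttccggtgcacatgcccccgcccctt
The EGR1 window held 2 CArG boxes, at -105 to -96 and at -83 to -74 from the start, and the IER2 window held none.

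Windows of 6 of the 9 members were matched, EGR1, EGR2, NR4A1, NR4A3, IER2 and CSRNP1, with 10 windows in all because some genes have several starts. Each motif was searched on both strands of the 250 bases. CArG boxes were found for EGR1 and for 1 start of EGR2, at -71 to -62, against 1.16% of all 35114 windows. The short element TGACG was found for EGR1, EGR2, NR4A3, IER2 and CSRNP1, and it was in 21.2% of all windows. It occurred 4 times upstream of NR4A3, between -109 and -21. The full element TGACGTCA, which contains the short one, was in no window of these genes and in 1.65% of all. An EGR site, GCGNGGGCG, lay at -198 to -190 upstream of EGR1 itself and was found in 8.41% of all windows. The ETS core CCGGAA was found for NR4A1 and IER2 and in 14.5% of all windows, and the NBRE AAAGGTCA, bound by NR4A monomers, was found for none of these genes and in 1.05% of all. The AP-1 site TGANTCA was likewise found for none and in 6.57% of all windows. These are matches of letters, and binding was not measured.

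The 9 genes spanned more than 4 orders of abundance. Per kilobase of the longest protein-coding transcript, and averaged over the 36 libraries, IER2 had a level of 2218 normalised counts and IER3 2144. At 12 weeks IER3 was the higher of the pair in all 4 groups, with 3561 against 2119 per kilobase in vehicle. IER2 encodes a nuclear protein with an ill-defined role in transcription, and IER3 a small protein that acts on survival and ERK signalling. CSRNP1, a cysteine- and serine-rich nuclear protein induced by AXIN1, had a level of 332 per kilobase, EGR1 123.3 and NR4A1 58.7. NR4A2 had 10.3, NR4A3 0.937, EGR2 0.162 and EGR3 0.0990 per kilobase. The last 3 averaged under 10 normalised counts in every table and were left out of the tests, so 6 of the 9 genes were tested. The filter was on the mean over all 12 libraries of a table, so a gene low in vehicle could pass through its higher groups. The 6 tested genes averaged above 10 in every group, the lowest being NR4A2 at 12.9 at 10 µM for 48 h.

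**Figure D1:**
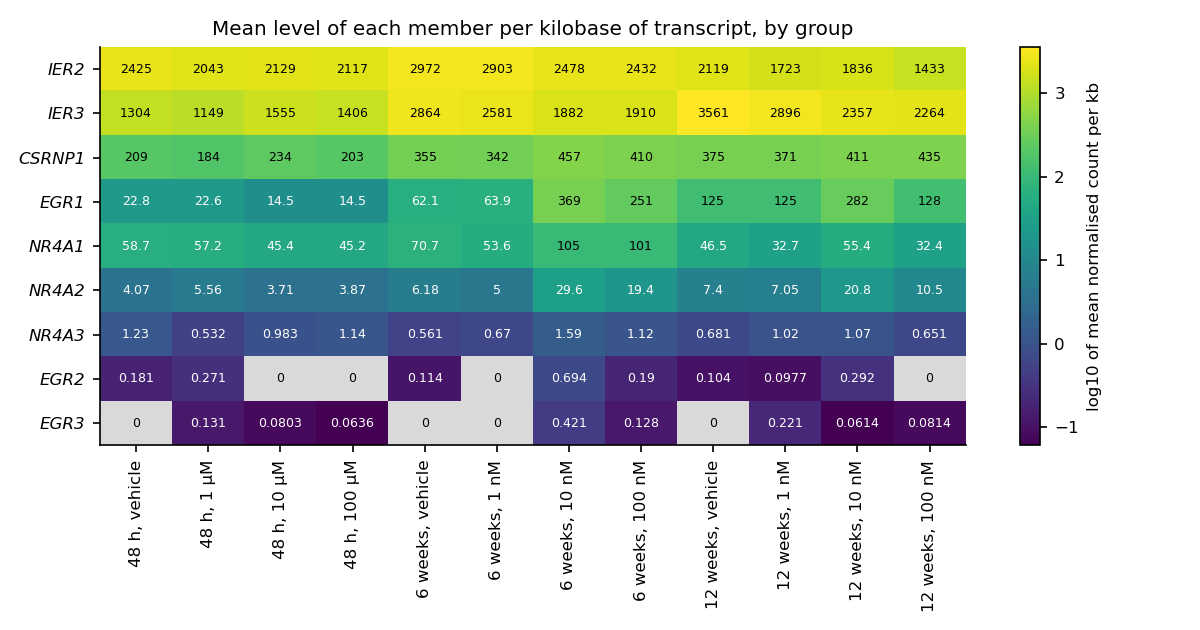
Mean normalised count per kilobase of transcript for the 9 genes (rows, highest overall at the top) in the 12 groups (columns), with the colour on a log10 scale and grey for groups without a read. IER2 and IER3 stayed above 1000 per kilobase in every group, EGR1 reached 369 at 10 nM for 6 weeks, and EGR2 and EGR3 had no read in 4 groups each.

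The EGR family is described first. EGR1 lies on chromosome 5 from 138465479 to 138469303 (GRCh38.p14), and it had 16173 reads in all. At 48 h its normalised counts were 70.9, 91.1 and 52.8 in vehicle, 74.2, 92.6 and 46.1 at 1 µM, 26.1, 98.4 and 12.2 at 10 µM and 38.4, 34.1 and 63.7 at 100 µM. The 3 libraries at 10 µM held both the lowest and the highest value of that table. The groups overlapped throughout, and the log2 difference from vehicle was -1.11 ± 0.62 (SE) at 10 µM and -0.66 ± 0.62 at 100 µM. Without replicate 2 at 10 µM, the library at 98.4, the 10 µM difference was -1.91, and without replicate 3, the library at 12.2, it was -0.45.

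At 6 weeks EGR1 had normalised counts of 108, 150.1 and 327 in vehicle, 456, 58.5 and 87.3 at 1 nM, 888, 1191 and 1395 at 10 nM and 988, 840 and 531 at 100 nM. All 6 libraries at 10 and 100 nM lay above all 6 libraries of the vehicle and 1 nM groups, and those 2 lower groups overlapped. EGR1 averaged 1158 ± 255 at 10 nM and 195 ± 116 in vehicle (SD, n = 3 each), a log2 difference of 2.70 ± 0.65 or 6.49-fold on the scale of log2(count + 1). The average at 100 nM was 786 ± 234, a difference from the same vehicle of 2.12 ± 0.65, while 1 nM stood at 201 ± 221 with a difference of -0.39 ± 0.65. These differences are a description, since the genes were taken up with their response in these tables known, and the 3 doses share 1 vehicle group. In a bulk sample, fewer cells with a transcript and less transcript in each cell cannot be told apart.

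At 12 weeks the EGR1 counts were 244, 233 and 701 in vehicle, 617, 381 and 176 at 1 nM, 352, 1042 and 1265 at 10 nM and 402, 115 and 687 at 100 nM. In each group the highest library was at least 3 times the lowest, and all 4 groups overlapped. The log2 difference from vehicle was 1.18 ± 0.72 at 10 nM, -0.11 ± 0.72 at 100 nM (0.18 on library totals, and -0.67 to 0.62 with each library left out in turn) and 0.02 ± 0.72 at 1 nM. Vehicle cells themselves averaged 71.6 ± 19.2 at 48 h, 195 ± 116 at 6 weeks and 393 ± 267 at 12 weeks, in tables that were each compared only within themselves.

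EGR2 and EGR3, which encode zinc finger factors related to EGR1, were close to absent. EGR2, on chromosome 10, had 20 reads in all, in 12 of 36 libraries, and EGR3, on chromosome 8, had 18 reads in 12 libraries. EGR2 had 8 reads over the 3 libraries at 10 nM for 6 weeks and 1 in the matching vehicle, and EGR3 had 7 and 0. Elsewhere no group held more than 3 reads of either gene. Each had no read in 4 groups, and a count of 0 over the 3 libraries of a group allows up to 3 reads, which is 0.0522 to 0.0531 RPM (reads scaled to the library total) for EGR2 and 0.0523 to 0.0541 for EGR3, counting error only. In single libraries at 6 weeks EGR3 had 2, 3 and 2 reads at 10 nM and none in vehicle, and EGR2 had 2, 5 and 1 at 10 nM and 0, 0 and 1 in vehicle. With so few reads neither gene was tested.

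In the NR4A family, with the authors' size factors, NR4A2 had the same groups apart at 6 weeks as EGR1, at a lower level. The groups of NR4A1 overlapped on that scale. Its 2 upper doses were apart from vehicle in RPM, where the share of all genes apart was not counted. NR4A2 (chromosome 2, 156324437 to 156332721), known as NURR1, had normalised counts at 6 weeks of 9.70, 14.3 and 40.4 in vehicle, 23.99, 6.65 and 21.4 at 1 nM, 70.1, 105 and 133 at 10 nM and 71.4, 44.9 and 85.3 at 100 nM. As with EGR1, every library at 10 and 100 nM lay above every library of the vehicle and 1 nM groups. NR4A2 averaged 103 ± 31.6 at 10 nM and 21.5 ± 16.6 in vehicle (SD, n = 3 each), a log2 difference of 2.41 ± 0.57. At 100 nM it averaged 67.2 ± 20.5 and differed from that vehicle by 1.80 ± 0.57. The highest vehicle library, replicate 3 at 40.4, lay just under the lowest library at 100 nM, replicate 2 at 44.9.

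NR4A2 at 12 weeks had counts of 18.9, 14.8 and 43.3 in vehicle, 34.8, 25.0 and 13.6 at 1 nM, 40.3, 75.3 and 101 at 10 nM and 38.1, 12.99 and 57.9 at 100 nM. Of the 10 nM libraries only replicate 1 lay below the highest vehicle library, and the log2 difference at 10 nM was 1.51 ± 0.60 against 0.40 ± 0.60 at 100 nM, which ran from -0.04 to 0.995 with each library left out in turn. At 48 h the vehicle libraries were close together, at 13.8, 15.3 and 13.2, and the 9 exposed libraries ran from 6.95 to 24.4 on both sides of them. The fitted differences at 48 h were 0.37 ± 0.50 at 1 µM, -0.34 ± 0.50 at 10 µM and -0.15 ± 0.50 at 100 µM.

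NR4A1 (chromosome 12, 52022832 to 52059503), known as NUR77, had 6 week counts of 265, 178 and 302 in vehicle, 156, 110.3 and 298 at 1 nM, 408, 271 and 427 at 10 nM and 325, 300.2 and 441 at 100 nM. The lowest library at either of the 2 upper doses lay under the highest vehicle library, so the groups overlapped. NR4A1 averaged 369 ± 85.01 at 10 nM and 248 ± 64.1 in vehicle, a log2 difference of 0.58 ± 0.37, with 0.53 ± 0.37 at 100 nM and -0.49 ± 0.37 at 1 nM.

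At 12 weeks NR4A1 had 100.2, 219 and 171 in vehicle, 103, 139 and 103 at 1 nM, 212, 181 and 190.1 at 10 nM and 179, 41.3 and 121 at 100 nM. The 3 libraries at 10 nM were the closest together of any NR4A1 group at that time, and the one at 41.3 was the lowest of all 36. Differences from vehicle were 0.32 ± 0.47 at 10 nM, -0.68 ± 0.47 at 100 nM (-1.12 to -0.07 with each library left out in turn) and -0.45 ± 0.47 at 1 nM. At 48 h NR4A1 averaged 159 ± 23.5 at 100 µM, 159 ± 12.6 at 10 µM and 206 ± 55.7 in vehicle, with differences of -0.35 ± 0.25 and -0.34 ± 0.25.

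NR4A3, known as NOR1, was detected in 35 of 36 libraries with at most 21 reads. It had 36 reads over the 3 libraries at 10 nM for 6 weeks, 3, 21 and 12 in turn, and 9 in the matching vehicle, with 23 at 100 nM and 11 at 1 nM. The other 8 groups held 10 to 24 reads. Most of the sum at 10 nM was 1 library, and no test was made.

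The 3 abundant genes did not share that pattern. IER2 (chromosome 19, 13150411 to 13154911) averaged 7270 ± 1168 at 10 nM, 7137 ± 693 at 100 nM and 8719 ± 2957 in vehicle at 6 weeks. IER3 (chromosome 6, 30743199 to 30744547) averaged 2541 ± 362 at 10 nM, 2579 ± 244 at 100 nM and 3867 ± 2089 in vehicle. The vehicle libraries of IER3 were 6180, 2118 and 3303, so that their spread took in every library at 10 and 100 nM. The log2 differences at 10 nM were -0.22 ± 0.32 for IER2 and -0.48 ± 0.42 for IER3, and at 100 nM they were -0.24 ± 0.32 and -0.45 ± 0.42.

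CSRNP1 (chromosome 3, 39141855 to 39154641) had 6 week counts of 1414, 935 and 999 in vehicle, 701, 990.4 and 1538 at 1 nM, 1617, 1249 and 1453 at 10 nM and 1267, 1264 and 1342 at 100 nM. Its groups overlapped because vehicle replicate 1 lay above all 3 libraries at 100 nM. The log2 difference was 0.38 ± 0.30 at 10 nM and 0.23 ± 0.30 at 100 nM.

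At 48 h and 12 weeks the same 3 genes moved little against their spread with the authors' size factors. IER2 averaged 6210 ± 1588 at 100 µM, 6248 ± 1703 at 10 µM and 7115 ± 532 in vehicle at 48 h, and 4204 ± 1319 at 100 nM, 5386 ± 1024 at 10 nM and 6217 ± 2523 in vehicle at 12 weeks. IER3 ranged from 1128 to 3475 over the 48 h libraries and from 2361 to 8272 over those at 12 weeks, where the highest was vehicle replicate 2. CSRNP1 ranged from 486 to 1067 at 48 h and from 785 to 1828 at 12 weeks. With those factors their 18 log2 differences from vehicle at these 2 times lay between -0.54 and 0.30. In RPM IER2 had 268 to 319 at 100 µM and 243 to 374 at 10 µM, below its 48 h vehicle (390 to 442). CSRNP1 had 28.4 to 31.7 RPM at 100 µM, below that vehicle (35.6 to 41.8). At 12 weeks CSRNP1 had 62.8 to 82.9 RPM at 10 nM and 57.5 to 82.9 at 100 nM, above vehicle (37.2 to 55.4). Other doses of these 3 genes overlapped with vehicle in RPM. The share of all genes apart in RPM was not counted, so these separations are not read as particular to the 3 genes. The median shift of all genes on that scale follows.

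The signs of IER2 and IER3 at 6 weeks depended on the scaling, and that of CSRNP1 did not. When the recovered reads were scaled to library totals, a setting chosen after seeing the data, the median log2 difference of all genes moved to 0.72 at 10 nM, against 0.05 with the authors' size factors, and to 0.59 against 0.04 at 100 nM. It moved to -0.30 and -0.26 at 10 and 100 µM for 48 h and to 0.23, 0.39 and 0.29 at 1, 10 and 100 nM for 12 weeks. Relative to vehicle, IER2 then stood at 0.45 ± 0.24 and IER3 at 0.19 ± 0.26 at 10 nM, both below that median, so their sign turned from negative to positive. CSRNP1 stood at 1.05 ± 0.20, NR4A1 at 1.24 ± 0.40, EGR1 at 3.36 ± 0.89 and NR4A2 at 3.04 ± 0.72, above the median under both scalings. In RPM CSRNP1 averaged 98.2 ± 6.27 at 10 nM and 47.4 ± 4.43 in vehicle, and its groups did not overlap on that scale. At 100 nM CSRNP1 was also apart, at 77.0 to 87.9 RPM against 44.7 to 52.6. NR4A1 had 19.8 to 30.3 RPM at 10 nM and 19.1 to 25.3 at 100 nM, both above vehicle (8.45 to 15.9). IER2 lay above vehicle in RPM at 10 nM only (445 to 523 against 290 to 431), and IER3 overlapped at both doses. Separation of NR4A1, IER2 and CSRNP1 thus depended on the scaling, and the share of all genes apart in RPM was not counted.

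**Figure D2:**
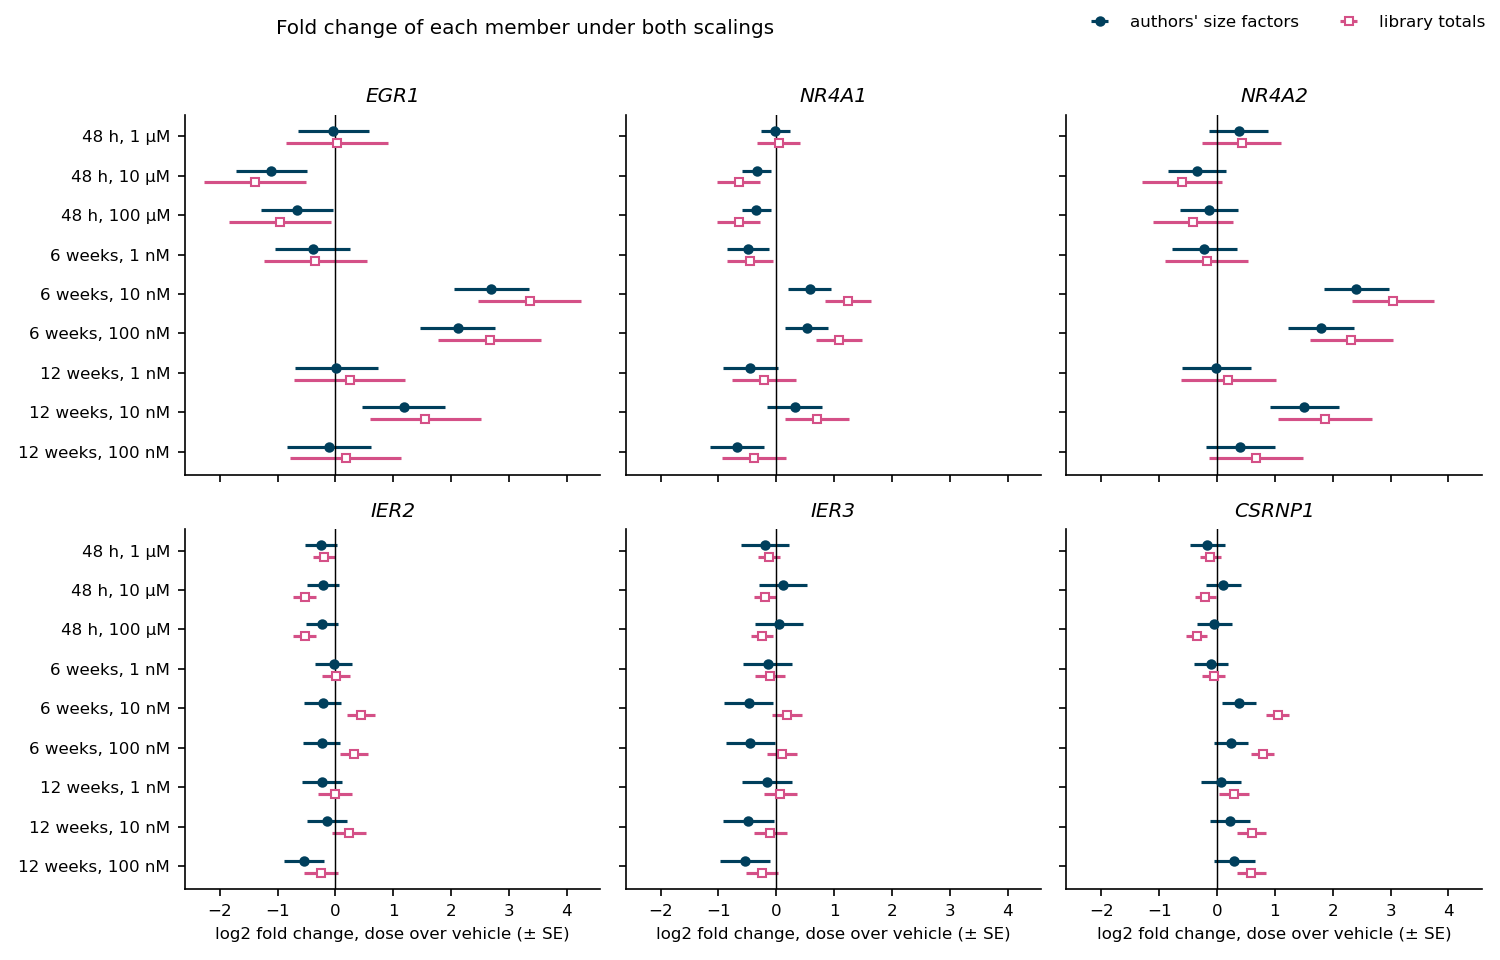
Log2 fold change of each dose over the vehicle of its time (points, with bars of 1 standard error from the limma fit) for the 6 tested genes, with the authors' size factors (filled circles) and with library totals (open squares). EGR1 and NR4A2 stand above 0 at 10 and 100 nM for 6 weeks under both scalings, while IER2 and IER3 change sign between them.

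The fit across all genes called none of the 6. limma's test on log2(count + 1), two-sided with Benjamini-Hochberg adjustment over all genes, gave EGR1 and NR4A2 an adjusted p = 0.0953 at 10 nM for 6 weeks and 0.272 at 100 nM. At 10 nM limma called 0 of 12201 genes (0%), with 5365 genes below 0.05 before adjustment, edgeR called 0, and DESeq2 called 3706, which is 30.4%, with EGR1 and NR4A2 among them at an adjusted p = 0.0255. At 100 nM limma and edgeR called 0, with 1483 and 1946 genes at an unadjusted p under 0.05, and DESeq2 called 3 genes (0.0246%), none of them among the 6. Leaving out a library of another group changed the limma call at 10 nM. Without 1 nM replicate 1 it called 5946 of the 12201 genes, EGR1 and NR4A2 among them (limma adjusted p = 0.00762 and 0.00773). Without 1 nM replicate 3 it called 3203 of the 12201, with the same 2 genes at a limma adjusted p = 0.0491. With only the vehicle and 10 nM libraries in the fit, another setting chosen after seeing the data, limma called 4742 of the 12201 genes. Both genes then had a limma adjusted p = 0.0153. All these p-values of EGR1 and NR4A2 rest on the 6 week values that the genes were chosen on. They describe the fits, and being called among so many genes is no support for the 2 genes.

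With the authors' size factors, groups without overlap were common at 6 weeks. The 10 nM libraries lay apart from vehicle in 60.3% of all tested genes and above it in 30.6%, and 2 of the 6 tested genes, EGR1 and NR4A2, lay above. At 100 nM the shares were 47.3% and 22.9%, with the same 2 genes above. The background share says that such separation was usual at these 2 doses, and nothing is read from the count. At 1 nM for 6 weeks the share apart either way was 1.31%, at 12 weeks it was 2.46% at 1 nM, 3.28% at 10 nM and 4.64% at 100 nM, and at 48 h it was 2.31% at 1 µM, 6.19% at 10 µM and 10.8% at 100 µM, with none of the 6 genes apart in any of these comparisons. In these 7 comparisons limma and edgeR called 0 genes, with 6 to 345 and 7 to 299 genes at an unadjusted p under 0.05, and DESeq2 called 0 to 2. Among the 6 genes, NR4A2 at 10 nM for 12 weeks was the 1 with an unadjusted p under 0.05 there (unadjusted p = 0.0267, adjusted p = 0.655 by limma).

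Other measures moved with the same groups at 6 weeks. The ribosomal protein share of reads was 9.37% to 13.4% at 10 nM, 11.7% to 16.3% at 100 nM and 17.2% to 19.4% in vehicle, without overlap at either dose, and 11.4% to 19.0% at 1 nM. The summed level of the 6 epithelial markers was 20568 to 40884 at 10 nM, 28593 to 55545 at 100 nM and 74296 to 142645 in vehicle, and that of the 12 endothelial markers was 24332 to 28930, 25792 to 29976 and 34848 to 77773, with CDH1 and CLDN5 near 0 throughout. At 1 nM the epithelial sum ran from 27252 to 184124 and the endothelial sum from 25283 to 83984, across the other groups. Single markers did not all follow these sums. At 10 nM 5 of the 10 tested endothelial markers had a log2 difference above 0, TEK (1.85 ± 0.60) and ERG (1.06 ± 0.34) most, ENG was at -1.46 ± 0.57, and the median was -0.09, while KRT7, KRT8 and KRT18 lay between -1.76 and -1.59 and EPCAM was at 1.25 ± 0.48. EPCAM averaged 5.29 in vehicle, under the filter's 10, so it passed through higher groups. The part of these measures in the result was not tested. A first principal component held 83.8% of the variance at 6 weeks, and all libraries at 10 and 100 nM lay above those of vehicle on it. The 1 nM libraries were on both sides, with replicate 1 at 0.903, among the upper doses, and replicates 2 and 3 at -0.930 and -1.70. With that component as a covariate the log2 difference at 10 nM was 1.15 for EGR1 and 1.80 for NR4A2. The component was computed from the same libraries with the group differences left in, so this fit cannot separate it from dose. Nothing is concluded from these 2 values.

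The 2 upper doses were also compared with each other directly. Their 6 week libraries enter the fold changes over vehicle that were in view when the genes were chosen, the larger ones at 10 nM. A lower value at 100 nM than at 10 nM is thus favoured by the choice at 6 weeks, and those differences are a description. At 6 weeks EGR1 was at 786 ± 234 at 100 nM and 1158 ± 255 at 10 nM, a log2 difference of -0.58 ± 0.65, and NR4A2 was at 67.2 ± 20.5 and 103 ± 31.6, a difference of -0.61 ± 0.57 (limma adjusted p = 0.999 for both). The other 4 genes differed by -0.15 to 0.03, and groups were apart in 3.98% of all genes. At 12 weeks all 3 genes of the EGR and NR4A families that were tested had lower means at 100 nM, with -1.29 ± 0.72 for EGR1, -1.11 ± 0.60 for NR4A2 and -0.997 ± 0.47 for NR4A1, none past the threshold. NR4A1 at 114 ± 69.1 at 100 nM and 194 ± 15.9 at 10 nM was the 1 gene of the 6 whose groups did not overlap, against 4.56% of all genes, and 2.63% in the same direction. Without 100 nM replicate 2, the library with NR4A1 at 41.3, the differences were -0.56 for EGR1, -0.52 for NR4A2 and -0.39 for NR4A1. At 48 h the differences between 100 and 10 µM ran from -0.16 to 0.45, with 0.678% of all genes apart. limma and edgeR called 0 genes in these 3 contrasts, with 13 to 170 and 16 to 170 genes at an unadjusted p under 0.05, and DESeq2 called 2 in the 48 h contrast, none in that at 6 weeks and 1 in that at 12 weeks.

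The dose effects at 12 and 6 weeks were also set against each other, as differences of differences over 24 libraries. The 6 week effect that enters them is one of the values the genes were chosen on, so a smaller 12 week effect is favoured by the choice, and the differences are a description. At 100 nM the 12 week effect minus the 6 week effect was -2.23 ± 1.05 for EGR1, -1.40 ± 0.86 for NR4A2 and -1.21 ± 0.62 for NR4A1. Without 100 nM replicate 2 of 12 weeks these were -1.50, -0.81 and -0.60. At 10 nM the differences were -1.52 ± 1.05 for EGR1 and -0.90 ± 0.86 for NR4A2, and CSRNP1, IER2 and IER3 lay between -0.30 and 0.17 at all 3 doses. limma and edgeR called 0 of 12037 genes at each dose, with 25 to 68 and 23 to 65 at an unadjusted p under 0.05, and DESeq2 called 1 or 2, none of them among the 6.

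With the authors' size factors, ordering the 4 groups of each time by mean gave few steps larger than the spread. EGR1 and NR4A2 at 6 weeks each had 1 such step, with no overlap between the 100 nM group and the next group down, and all other neighbouring groups of these 6 genes overlapped at every time. EGR1 had its highest mean at 10 nM at both 6 and 12 weeks, and so had NR4A1 and NR4A2. IER2 and IER3 had theirs in the vehicle groups at both times with the authors' size factors. In RPM IER2 was highest at 10 nM at both times, with 495 ± 43.3 and 304 ± 34.3, and IER3 at 10 nM at 6 weeks (173 ± 10.3) and at 1 nM at 12 weeks (197 ± 17.2). EGR1 and NR4A1 at 48 h had near ties, so their order is not read. Their means in vehicle and at 1 µM were 71.6 and 71.0 for EGR1 and 206 and 201 for NR4A1. At 10 and 100 µM they were 45.6 and 45.4 for EGR1 and 159.3 and 158.7 for NR4A1. In RPM both genes averaged more at 1 µM than in vehicle (4.47 against 4.31 and 12.19 against 12.01).

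Replicates of a group differed widely, and the choice of genes did not fix how the members deviated within groups. Each library's log2 value was set against the mean of its own group, over 36 libraries and 21 relations among the 6 genes and the ribosomal protein share, with permutation within groups. EGR1 and NR4A2 deviated together, with Pearson's r = 0.821 and Spearman's rho = 0.799 (adjusted p = 0.000168 and 0.00021, two-sided permutation test), and r = 0.809 without the 2 libraries farthest from the median. Within the tables r was 0.753 at 48 h, 0.673 at 6 weeks and 0.989 at 12 weeks, and it was 0.912 when scaled to library totals. A library high in EGR1 for its group thus tended to be high in NR4A2 as well. This was not particular to the pair, since TOB2 had r = 0.975 and MN1 0.974 with EGR1 on the same centring. A first component held 78.0%, 83.8% and 69.2% of the variance of the tested genes at 48 h, 6 weeks and 12 weeks. The p-values are against no correlation, and the share of all gene pairs with so high an r was not counted.

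A second set was formed by the abundant genes. IER3 and CSRNP1 had r = 0.958 and rho = 0.962, IER2 and IER3 0.920 and 0.887, and IER2 and CSRNP1 0.870 and 0.854 (adjusted p = 7e-05 for each, from the smallest p that 100000 permutations can give, 1e-05). All values of a library share 1 size factor, and these relations were weaker on library totals, where r was 0.569, 0.523 and 0.768 (adjusted p = 0.0336, 0.0589 and 0.00081). Without the 2 farthest libraries r was 0.945, 0.896 and 0.826. EGR1 ran against 2 of these genes, with r = -0.605 with IER3 (rho = -0.640, adjusted p = 0.0149 and 0.00454) and -0.624 with CSRNP1 (rho = -0.649, adjusted p = 0.0134 and 0.0038). With IER2 it had r = -0.295 (rho = -0.313, adjusted p = 0.251 and 0.193). On library totals the values for IER3, CSRNP1 and IER2 were -0.143, 0.494 and 0.730, so the opposition did not hold under that scaling. NR4A1 had r = 0.193 with EGR1 (rho = 0.0651, adjusted p = 0.514 and 0.768) but 0.713 on library totals. With IER2, CSRNP1 and IER3 NR4A1 had r = 0.622, 0.499 and 0.484 (adjusted p = 0.0102, 0.0225 and 0.0278, permutation test). On library totals these were 0.786, 0.783 and 0.345 (adjusted p = 0.000971, 0.000262 and 0.275, permutation test).

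EGR1 also moved with the ribosomal protein share. A library with a higher share than its group had lower EGR1, with r = -0.871 and rho = -0.872 (adjusted p = 0.000105 each), r = -0.834 without the 2 farthest libraries, and -0.962, -0.889 and -0.817 within the 48 h, 6 week and 12 week tables. The value on library totals was -0.900. For NR4A2 r was -0.669 (rho = -0.620, adjusted p = 0.00115 and 0.0032), and for IER3 it was 0.717 (rho = 0.715, adjusted p = 0.000175 and 0.00021). The IER3 value was 0.228 on library totals. What sets the share was not tested, and how many other genes follow it as closely was not counted.

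**Figure D3:**
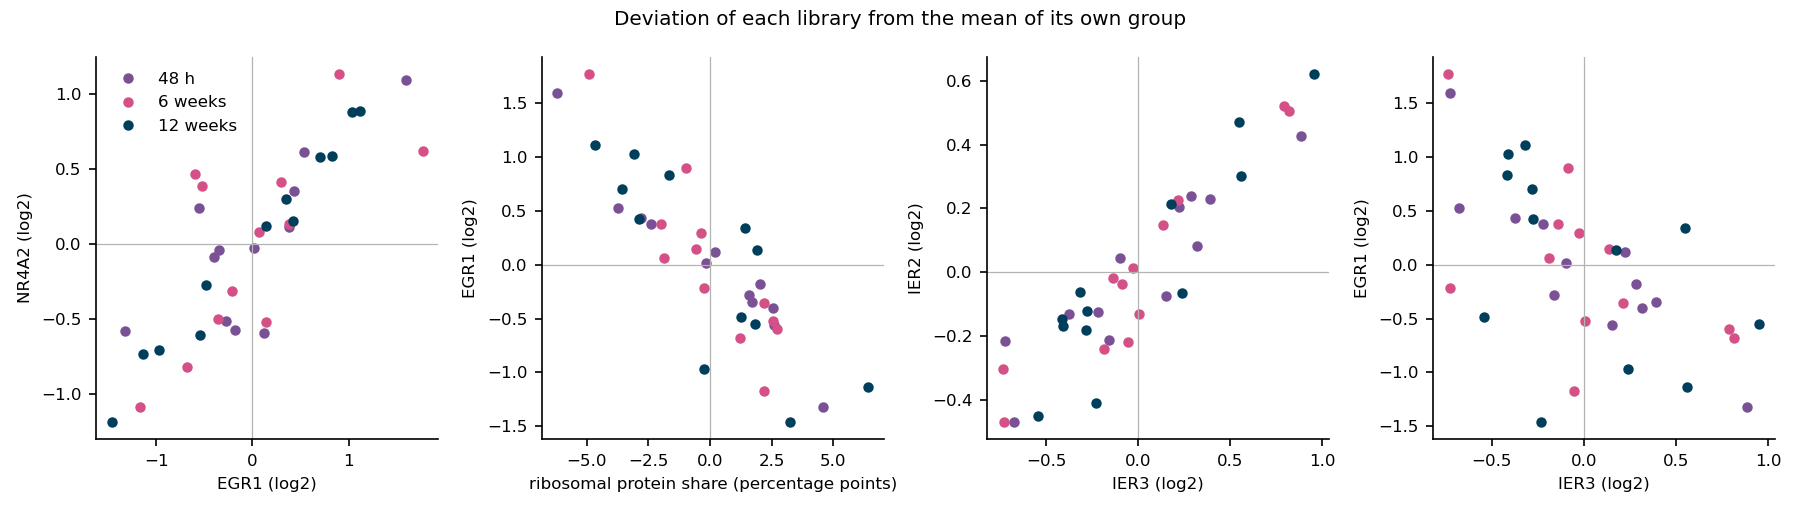
Each point is 1 library, placed by its deviation from the mean of its own group: NR4A2 against EGR1, EGR1 against the ribosomal protein share in percentage points, IER2 against IER3 and EGR1 against IER3, on the log2 scale of normalised counts. The pairs EGR1 with NR4A2 and IER2 with IER3 slope upwards (r = 0.821 and 0.920), and EGR1 slopes downwards against the share and against IER3 (r = -0.871 and -0.605).

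Genes with the most similar profile were named for EGR1 and NR4A1, by Pearson's r over the 36 libraries after centring each table, among 10315 genes with a mean of at least 50 in every table. For EGR1 they were FOS (r = 0.957), KLF13 (0.947), MN1 (0.947), TOB2 (0.944) and KANSL1 (0.944). FOS, the AP-1 subunit, averaged 61.3 over the 48 h libraries and 1475 and 1879 over those at 6 and 12 weeks. For NR4A1 they were JUND (0.811), JUNB (0.799), CHST7 (0.784), EPOP (0.784) and SLC37A1 (0.783). Centred on groups instead of tables, r was 0.951 for FOS with EGR1 and 0.909 for JUND with NR4A1. The points share library size factors and the same 36 libraries, so these are descriptions.

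Other immediate early genes were taken from a list of 32, of which 30 passed the filter. At 10 nM for 6 weeks 22 had a higher and 8 a lower mean than in vehicle, with a median log2 difference of 1.00, against 0.05 over all genes tested. limma called none, and DESeq2 called 16 as higher and 1 as lower, where it called 30.4% of all genes. FOS averaged 2802 ± 484 at 10 nM and 512 ± 424 in vehicle (2.80 ± 0.68), and KLF6, a Krüppel-like factor, 1077 ± 382 and 259 ± 114 (2.10 ± 0.57). SGK1, a serum- and glucocorticoid-regulated kinase, averaged 3055 ± 345 at 10 nM and 861 ± 348 in vehicle. IER5L, a relative of IER5, went the other way, at 359 ± 140 at 10 nM and 1479 ± 883 in vehicle (-1.96 ± 0.67), and FOSL1 stood at -0.94 ± 0.42. At 100 nM 23 had a higher and 7 a lower mean, the median being 0.81, and at 1 nM 9 and 21 with -0.07. For 12 weeks the split was much the same at every dose. It was 21 and 9 at 1 nM (median 0.27), 22 and 8 at 10 nM (0.49) and 21 and 9 at 100 nM (0.26).

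At 48 h the 1 µM group had 18 of 30 higher and 12 lower, with a median of 0.02. At the 2 upper doses more genes were lower, 24 of 30 at 10 µM with a median of -0.45 and 22 of 30 at 100 µM with -0.32. limma and DESeq2 called none of them. ZFP36, which destabilises AU-rich mRNAs including those of early genes, averaged 170.1 ± 46.4 at 100 µM and 316 ± 10.1 in vehicle (-0.92 ± 0.39). IER5 averaged 986 ± 172 at 100 µM and 1791 ± 184 in vehicle (-0.87 ± 0.39).

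EGR corepressors and genes with EGR sites known from other systems were also listed. At 10 nM for 6 weeks 9 of 12 were higher and 3 lower, with a median log2 difference of 0.29 against 0.05 over all genes tested. limma called none, and DESeq2 called 5 as higher and 1 as lower, where it called 30.4% of all genes. Nothing is read from that count. NAB1 averaged 366 ± 136 at 10 nM and 147 ± 54.4 in vehicle (1.31 ± 0.49), while NAB2, the corepressor induced by EGR proteins, averaged 341 ± 63.5 and 327 ± 148 (0.18 ± 0.54). F3, the tissue factor gene, averaged 20.2 ± 6.11 at 10 nM and 5.41 ± 2.45 in vehicle (1.76 ± 0.62), FN1, fibronectin, 1441 ± 442 and 528 ± 178 (1.47 ± 0.54), and TGFB1 4616 ± 717 and 13579 ± 8028 (-1.42 ± 0.59). The vehicle mean of F3 was under 10, so it passed the filter through higher groups. PDGFA, a growth factor gene with EGR sites, stood at 0.20 ± 0.24 and PDGFB at -0.44 ± 0.33. At 10 µM for 48 h NAB2 averaged 246 ± 78.8 and its vehicle 458 ± 56.2 (-0.93 ± 0.27, unadjusted p = 0.00485, limma adjusted p = 0.960). Of the close relatives EGR4, CSRNP2, CSRNP3, IER5 and IER5L, 3 passed the filter, and CSRNP2 stood at 0.04 ± 0.20 at 10 nM for 6 weeks.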

How the data were processed

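Messenger RNA libraries of EA.hy926 cells, 36 in all and 3 for each of 12 groups, were sequenced on the DNBSEQ platform with paired reads of 150 bases, per the labels' protocols. The values deposited for each gene are a signal, read counts that the authors divided by 1 size factor per library. The submitters' processing notes name DESeq2, HISAT and Bowtie2 and the build GRCh38.p14. How reads were counted, and whether by strand, is not given in the sources used here. The 3 tables each list 47137 genes, 18048 of them with values. Whole reads were recovered from the steps of the values, with 100% within 0.01 of a whole read.

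limma 3.58.1 in R 4.3.3 was fitted with a trend on log2(signal + 1) in each table of 12 libraries, with 1 mean per group, genes with a table mean of at least 10, Benjamini-Hochberg adjustment over all genes and a threshold of 0.05. Differences of differences used the 24 libraries of the 6 and 12 week tables and genes passing both filters. The labels call the replicates biological without saying that the cultures were separate, so p-values measure the spread between these libraries. Depth was nearly equal, so it limits mainly the rare transcripts.

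Alternatives were pseudocounts of 0.1 and 10, no filter, a mean of at least 50, quantile normalization, a replicate block, the first principal component as a covariate, each library left out, and count tests of the recovered reads with DESeq2 1.42.0 and edgeR 4.0.16. Library totals and fits of only the groups compared were added after seeing the data. The members and the lists were chosen with earlier results of these data known. All tested members are named, with the 5 genes of highest profile correlation for EGR1 and NR4A1, and list genes were named as the largest differences or for their known link to EGR. The fits were tested on simulated data. Gene positions and upstream sequences are from RefSeq, GRCh38.p14, and transcript lengths from GENCODE release 29. Reads of overlapping or antisense genes cannot be told apart.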

Additional observations from a re-analysis of the deposited data

How the results depend on the processing

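The 6 genes were not called under limma with pseudocounts of 0.1 or 10, no filter, a mean of at least 50, quantile normalization, the replicate block, the first component or library totals, nor by edgeR. Of the 90 log2 differences of the 6 genes, 21 had another sign on library totals, and with quantile normalization IER2 and IER3 stood at 0.42 and 0.05 at 10 nM for 6 weeks, while a fit that also held the first component put them at 0.33 and 0.53. Calls depended on the tool and on the libraries in the fit. DESeq2 called 3706 of 12201 genes (30.4%) and 2 of the 6 at 10 nM for 6 weeks, where limma called 0, and 3 genes at 100 nM and 2 at 1 nM for 6 weeks. It also called 1 gene at 1 µM, 1 at 10 µM and 2 between 100 and 10 µM at 48 h, 2 at 10 nM, 1 at 100 nM and 1 between 100 and 10 nM at 12 weeks, and 2, 1 and 1 genes for the differences of differences at 1, 10 and 100 nM. With only the groups compared, limma called 4742 of the 12201 genes and 2 of the 6 at 10 nM for 6 weeks. With each library left out in turn the count there ran from 0 to 5946 genes and from 0 to 2 of the 6, and at 1 nM from 0 to 1 gene, the 1 being called without 1 nM replicate 1. The cause was not tested.

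The replicate block gave 0 calls in every comparison, as did the fit without it. Over each table same-numbered libraries did not all deviate together. Their correlations ran from -0.892 to 0.892 at 48 h (7 of 18 over 0.1), -0.861 to 0.808 at 6 weeks (5 of 18) and -0.846 to 0.874 at 12 weeks (8 of 18), and the best match had the same number in 13, 8 and 10 of 36 checks. For 10 nM against vehicle at 6 weeks all 3 were positive (0.665, 0.550 and 0.343), whereas for 100 nM against the same vehicle all 3 were negative, and with the block EGR1 and NR4A2 at 10 nM had an adjusted p = 0.146 by limma. Of the same 90 differences, 47 changed sign when some library was left out. Depth limits EGR2, EGR3 and NR4A3, for which a library held at most 5, 3 and 21 reads.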

Other observations

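Genes of the route that leads to immediate early transcription were listed apart. Of 18 such genes at 10 nM for 6 weeks, 13 had a higher and 5 a lower mean than in vehicle, with a median log2 difference of 0.63, limma called none, and DESeq2 called 4 as higher and 3 as lower, where it called 30.4% of all genes. MAP2K2, which encodes the kinase MEK2, averaged 4296 ± 1114 at 10 nM and 15393 ± 8383 in vehicle (-1.74 ± 0.63), and MAPK3, which encodes ERK1, 784 ± 199 and 2573 ± 1749 (-1.54 ± 0.60). RPS6KA3, a kinase downstream of ERK, averaged 1223 ± 313 at 10 nM and 457 ± 205 in vehicle (1.51 ± 0.51), and ELK4, an ETS partner of serum response factor, 686 ± 214 and 266 ± 109 (1.41 ± 0.55). At 100 µM for 48 h SRF itself averaged 440.1 ± 37.2 and its vehicle 637 ± 27.8 (-0.54 ± 0.21, limma adjusted p = 0.993).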
